A study of Mus musculus with 6 samples.

Results

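The 9 laminin chains Lama1, Lama2, Lama3, Lama4, Lama5, Lamb1, Lamb2, Lamb3 and Lamc1 were taken by symbol from the 22026 gene symbols listed for choroid ECs, the endothelial cells of the vessels that lie behind the retinal pigment epithelium (RPE). Lamc3, a γ chain outside this set, was used as a denominator. Cells came from 129/B6 mice at postnatal day 5 (P5), or postnatal day 30 (P30), with 3 isolations at each age and the RPE/choroid of 7 animals pooled in each. The labels name no genetic change and no drug at either age, and mice of both ages received a labelled antibody to VE-Cadherin by injection so that ECs could be sorted by flow cytometry. Replicates are separate isolations, and each is a pool, so differences between single animals are not seen. The question asked of these samples was which laminins choroid ECs transcribe before and after the retina matures.

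Laminins are secreted heterotrimers of an α, a β and a γ chain that polymerize at the cell surface and start the assembly of a basement membrane. The α chain carries the globular end that binds integrins, dystroglycan and other receptors, and the β and γ chains complete the coiled coil and link the trimer to nidogen and to its neighbours. ECs are known mainly for trimers with the α4 or α5 chain joined to β1 or β2 and γ1. The α2 chain is known from muscle, Schwann cells and the cells around vessels, the α3 and β3 chains from the anchorage of epithelia, and the α1 chain from embryonic basement membranes. In Bruch's membrane, the layered matrix between RPE and choroid, the basement membranes of the choroidal capillaries and of the RPE face each other.

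Upstream sequences are shown for the β chains that moved in opposite directions with age, Lamb1 and Lamb2, and for the α chains Lama5 and Lama2. They are the 250 bases before the annotated start, from RefSeq on GRCm38.p6, 5′ to 3′ on the strand of the gene. RefSeq promoter entries were matched by symbol for 5 of the 9 chains. Capitals mark matches, on both strands, to the GC box GGGCGG (reverse CCGCCC) and the CCAAT box (CCAAT, reverse ATTGG), and no match to TATAAA or to the ETS core CCGGAA was found in these 4 windows. None of the matches shown overlap each other.
Lamb1, chr12:31265043-31265292, plus strand: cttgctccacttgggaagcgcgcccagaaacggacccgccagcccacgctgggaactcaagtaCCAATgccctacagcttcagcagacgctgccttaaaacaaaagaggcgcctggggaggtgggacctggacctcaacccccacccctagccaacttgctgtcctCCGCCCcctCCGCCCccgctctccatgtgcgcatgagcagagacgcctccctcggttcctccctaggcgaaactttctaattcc
Lamb2, chr9:108479612-108479861, plus strand: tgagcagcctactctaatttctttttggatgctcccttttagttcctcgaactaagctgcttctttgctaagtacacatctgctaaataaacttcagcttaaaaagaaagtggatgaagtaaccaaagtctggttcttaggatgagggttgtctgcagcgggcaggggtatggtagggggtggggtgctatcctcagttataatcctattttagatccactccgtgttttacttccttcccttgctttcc
Lama5, chr2:180225860-180226109, minus strand: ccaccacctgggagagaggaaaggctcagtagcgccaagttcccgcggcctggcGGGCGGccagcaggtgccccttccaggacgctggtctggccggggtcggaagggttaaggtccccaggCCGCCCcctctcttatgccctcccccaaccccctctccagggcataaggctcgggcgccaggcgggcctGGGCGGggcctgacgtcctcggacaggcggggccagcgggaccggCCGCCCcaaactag
Lama2, chr10:27616943-27617192, minus strand: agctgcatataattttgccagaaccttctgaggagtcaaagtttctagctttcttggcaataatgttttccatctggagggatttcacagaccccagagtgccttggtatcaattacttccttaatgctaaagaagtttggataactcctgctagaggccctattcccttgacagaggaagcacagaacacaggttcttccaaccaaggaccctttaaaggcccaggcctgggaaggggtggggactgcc
The Lamb1 window held 2 GC boxes and 1 CCAAT box, with a GC content of 62.0% and 14 CpG dinucleotides. The Lamb2 window held none of the 4 motifs, with a GC content of 43.6% and 3 CpG dinucleotides. The Lama5 window held 4 GC boxes at a GC content of 72.4%, and the Lama2 window held no motif and 0 CpG dinucleotides at 47.2%. Over all 32851 promoter windows of this length, 32.7% held a GC box, 33.9% a CCAAT box, 12.4% TATAAA and 12.0% CCGGAA, and the median GC content was 52.4%. These matches describe the letters of the windows only.

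The values are FPKM, fragment counts scaled to transcript length and normalized by the authors for GC and the upper quartile. The levels of different chains in an isolation can therefore be set side by side. The sum of FPKM over all genes was 1432700 to 1734639 in the 6 isolations, which follows from the authors' scaling, and the depth behind a value is unknown. The 8 endothelial markers (Pecam1, Cdh5, Kdr, Tie1, Tek, Erg, Emcn and Egfl7) summed to 15677 to 16541 FPKM at P5 and 19104 to 22065 at P30. None of the 8 was called, but they did not move together. Cdh5, which encodes VE-Cadherin, the protein used for the sort, was 2971 ± 95.4 at P5 and 1885 ± 52.4 at P30 (mean ± SD, n = 3), lower in every P30 isolation (log2 difference -0.66, adjusted p = 0.00205 from limma, under 2-fold). Emcn, endomucin, was 3002 ± 66.3 and 5523 ± 357, higher in every P30 isolation, as were Egfl7, Kdr and Tie1, while Pecam1, Tek and Erg overlapped. These rises depended on the scaling. With each isolation rescaled to the same FPKM total they were smaller but kept their direction. The log2 differences of Emcn, Egfl7, Kdr and Tie1 were then 0.71, 0.36, 0.27 and 0.20. With quantile normalization the log2 differences of Emcn, Egfl7, Kdr and Tie1 were -0.01, -0.05, -0.11 and -0.11. Under that scaling Cdh5 was called higher at P5 (log2 difference -1.29, adjusted p = 0.000226 from limma), and Pecam1 had a difference of -0.57. Markers of other cells were also listed, and P30 isolations stood apart from each other in them. With isolations always given in order of replicate number, the sum of the 7 pericyte genes was 1712, 894 and 468 for P5 and 1841, 6228 and 3819 for P30. The 7 RPE genes summed to between 57.9 and 131 at P5 and to 3524, 1956 and 422 at P30. The 6 fibroblast genes summed to 725 to 1193 at P5 and 1777 to 4488 at P30, the 6 smooth muscle genes to 85.4 to 175 and 311 to 1083, the 3 Schwann cell genes to 9.75 to 28.5 and 38.6 to 167, the 5 haematopoietic genes to 484 to 725 and 257 to 652, and the 4 photoreceptor genes to 2.21 to 5.99 and 34.1 to 300. Markers listed at 0 were Rpe65 and the pericyte gene Higd1b in P5 replicates 2 and 3, the photoreceptor gene Sag in P5 replicate 2 and Pde6b in P5 replicates 1 and 2, and the smooth muscle gene Cnn1 in P5 replicate 3. The part of these cells in the chain values was not tested. In bulk RNA, fewer cells of a type and less RNA per cell cannot be told apart.

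Laminin transcripts changed in make-up between P5 and P30. Lama4, Lamb1 and Lamc1, which together make up an endothelial laminin, were all lower at P30, as was Lama1. Lamb2 and Lama3 were higher at P30. A gene was called different at a Benjamini-Hochberg adjusted p under 0.01 from limma on log2(FPKM + 1) and at least 2-fold in mean FPKM + 1. Of the 9 chains, 8 passed the minimum mean of 5 FPKM at either age and Lamb3 did not. Of these 8, 4 were called higher at P5, where 5.82% of all 12481 genes tested were, and 2 were called higher at P30, where 5.89% were. The number higher at P5 was 1 without P5 replicate 2, P5 replicate 3 or P30 replicate 1 and 2 without P5 replicate 1 or P30 replicate 3, and the number higher at P30 was 1 without P5 replicate 2. With each isolation rescaled to the same FPKM total, the calls over all genes split into 626 higher at P30 and 1063 higher at P5, in place of 735 and 726, and the same 6 chains were called. The median difference in log2(FPKM + 1), P30 minus P5, was -0.36 over the 8 chains and -0.10 over all genes tested. In the FPKM as deposited, every P30 isolation lay below every P5 isolation for 4 chains (33.0% of all genes tested did so). Every P30 isolation lay above for 3 chains, Lama3, Lama5 and Lamb2 (22.0% did so), and the ages overlapped for Lama2 and Lamb3.

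**Figure D1:**
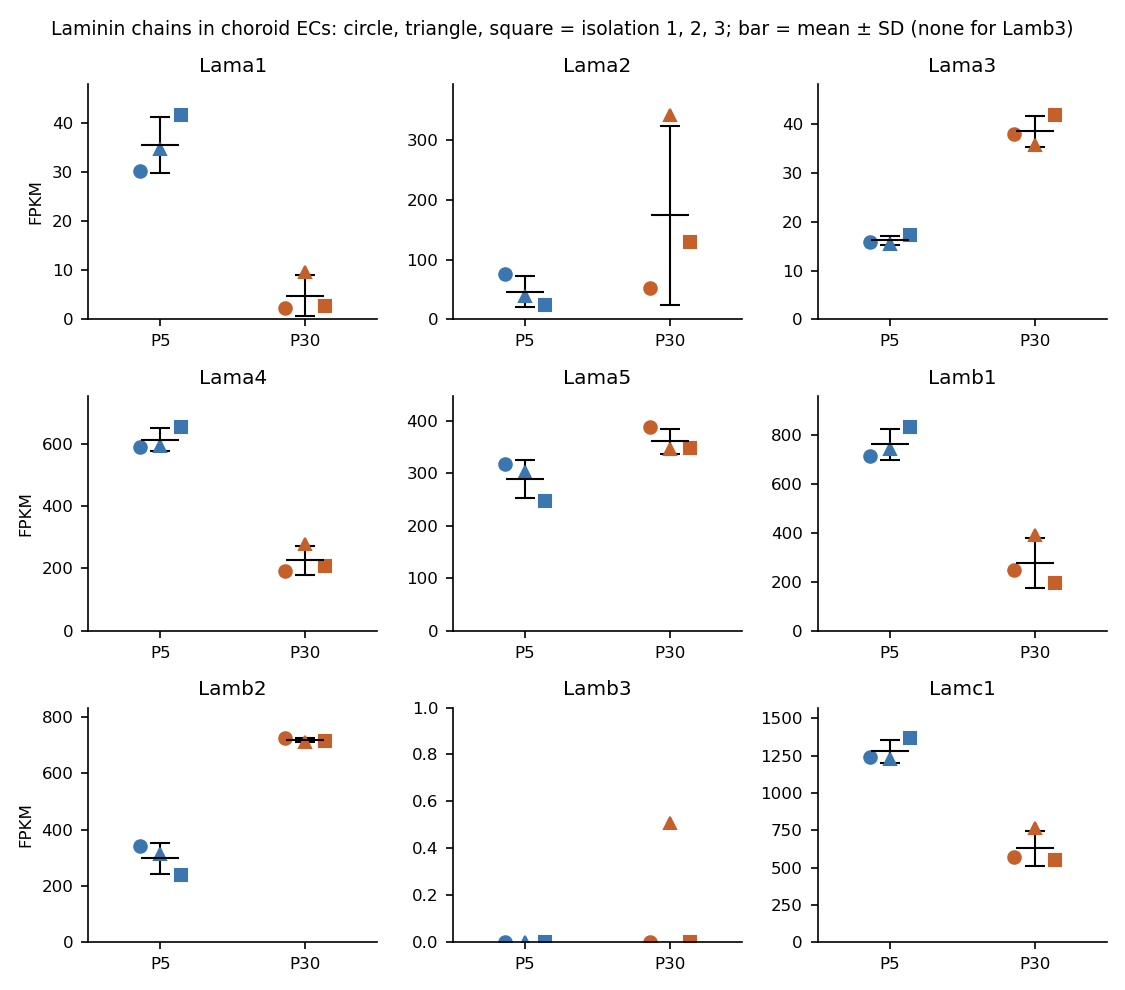
FPKM (linear axes from 0, one scale per panel) of the 9 laminin chains in the 3 P5 (blue) and 3 P30 (orange) isolations, with the mean and SD as black bars (none for Lamb3). The P30 points of Lama1, Lama4, Lamb1 and Lamc1 all lie under the P5 points, those of Lama3, Lama5 and Lamb2 lie above them, and Lama2 spreads from 51.8 to 341 at P30.

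Lama4 encodes α4, a short α chain that marks endothelial basement membranes early in vessel growth (chromosome 10, 38685321 to 38829994 of mm9, plus strand). The P5 isolations held 589, 593 and 654 FPKM, and the P30 isolations 193, 280 and 207. All P30 values were under all P5 values, by more than the range within either age. With n = 3 isolations an age, as for every mean ± SD given here, the mean was 612 ± 36.5 FPKM at P5, 2.70-fold the P30 mean of 227 ± 46.7 (log2 difference -1.45, SE 0.15, adjusted p = 0.000551 from limma). Leaving out any single isolation kept the call, with differences between -1.61 and -1.34.

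Lama5 encodes α5, the long α chain of mature vessels and of many epithelia and the main ligand of the receptor Bcam (chromosome 2, 179911078 to 179960564, minus strand). Its FPKM was 317, 303 and 248 at P5 and 389, 347 and 348 at P30. The ages did not overlap, but the gap between the lowest P30 and the highest P5 isolation was smaller than the spread at either age. The log2 difference of 0.33 (SE 0.12, 95% interval 0.05 to 0.60) did not pass the limits (adjusted p = 0.0660 from limma). It was smaller under other scalings. It was 0.16 with each isolation rescaled to the same FPKM total (adjusted p = 0.295 from limma). With quantile normalization it was 0.22 (adjusted p = 0.182 from limma). The separation of the ages is that of the deposited FPKM and was not recomputed under these scalings. A change of Lama5 as large as that of Lama4 or Lamb2 lies outside the 95% interval.

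Lama3, which encodes α3, a chain of epithelial anchorage, was 2.38-fold higher at P30 at a low level (chromosome 18, 12492533 to 12741522, plus strand). Its FPKM was 15.9, 15.5 and 17.2 at P5 and 37.9, 35.7 and 41.8 at P30. Both ages were tight and well apart (log2 difference 1.20, SE 0.15, adjusted p = 0.00137 from limma). Without P5 replicate 2 the adjusted p was 0.0124 and the call was lost. The FPKM is given for the whole gene, so transcripts that start at different points of Lama3 are not separated. Lamb3, which encodes the β3 chain that joins α3 in the epithelial trimer (chromosome 1, 195128151 to 195170072, plus strand), was listed at 0 in 5 isolations and at 0.51 in P30 replicate 2.

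Lama1 encodes α1, the chain of early embryonic basement membranes (chromosome 17, 68046605 to 68171985, plus strand). It was 30.3, 34.8 and 41.7 FPKM at P5 and 2.23, 9.67 and 2.67 at P30. All P30 values were under all P5 values, and P30 replicate 2 was the highest of its age. The fall was the largest of the chains on the log2 scale (log2 difference -2.85, SE 0.46, adjusted p = 0.00328 from limma). The call was lost without P5 replicate 1, 2 or 3 (adjusted p = 0.0142, 0.0198 and 0.0229) and without P30 replicate 1 or 3 (adjusted p = 0.0128 and 0.0101), with differences between -3.40 and -2.54 over the 6 omissions.

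Lama2 encodes α2, the chain of muscle and of cells that wrap vessels and nerves (chromosome 10, 26701094 to 27336748, minus strand). Its FPKM was 75.9, 38.9 and 24.7 at P5 and 51.8, 341 and 129 at P30. P30 replicate 1 lay under P5 replicate 1, and P30 replicate 2 was far above all others. The log2 difference of 1.63 (SE 0.67, 95% interval 0.06 to 3.20) did not pass the limits (adjusted p = 0.0913 from limma), and it was 0.95 without P30 replicate 2 and 2.30 without P30 replicate 1.

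Lamb1 and Lamb2 encode the β chains that join α4 or α5 in the laminins of ECs. Lamb1 (chromosome 12, 31950099 to 32014509, plus strand) was 712, 740 and 833 FPKM at P5 and 249, 391 and 194 at P30. Every P30 isolation was under every P5 isolation, and P30 replicate 2 was the highest of its age. The means were 761 ± 63.2 and 278 ± 102 (log2 difference -1.51, SE 0.24, adjusted p = 0.00303 from limma). The call was lost without P5 replicate 1, 2 or 3 (adjusted p = 0.0126, 0.0166 and 0.0199) or P30 replicate 1 (adjusted p = 0.0164), with a difference between -1.79 and -1.28 over the 6 omissions.

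Lamb2 (chromosome 9, 108382193 to 108392861, plus strand) moved the other way. Its FPKM was 342, 314 and 238 at P5 and 725, 710 and 715 at P30. The P30 isolations were nearly alike and all above the P5 isolations. The P5 isolations had the order of the summed pericyte list, which the smooth muscle, Schwann cell and haematopoietic lists shared. The means were 298 ± 54.0 and 717 ± 7.35, 2.41-fold higher at P30 (log2 difference 1.28, SE 0.14, adjusted p = 0.000724 from limma), and no omission of an isolation changed the call. Its SD on the log2 scale was 0.01 at P30 and 0.27 at P5, against medians of 0.26 and 0.13 over all genes tested.

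Lamc1 encodes γ1, the common γ chain of nearly all vascular laminins (chromosome 1, 155066052 to 155179916, minus strand). It was the most abundant chain at P5, with 1244, 1229 and 1368 FPKM, and had 570, 767 and 550 at P30. The ages were far apart, and P30 replicate 2 was again the highest of its age. The means were 1280 ± 76.1 and 629 ± 120 (log2 difference -1.04, SE 0.14, adjusted p = 0.00178 from limma), just past the 2-fold limit. The call was lost without P5 replicate 2 or 3 (adjusted p = 0.0112 and 0.0127), and without P30 replicate 1 or 3 (log2 differences -0.98 and -0.95), where the fold in means was under 2. Lamc3, the γ3 chain and no member of the set, was 49.0, 25.5 and 7.37 at P5 and 76.4, 403 and 197 at P30 (log2 difference 3.04, SE 0.76, adjusted p = 0.0179 from limma), and it was not called. Exons of Lamc3 overlap those of a transcript on the other strand in the mm9 annotation, while no exon of the 9 chains overlaps another gene.

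The levels were ordered differently at the ages. At P5 the order of mean FPKM was Lamc1, Lamb1, Lama4, Lamb2, Lama5, Lama2, Lama1, Lama3 and Lamb3, and only the neighbours Lamb2 and Lama5, and Lama2 and Lama1, overlapped between isolations. At P30 the order was Lamb2, Lamc1, Lama5, Lamb1, Lama4, Lama2, Lama3, Lama1 and Lamb3, and Lamb2 overlapped with Lamc1, Lama5 with Lamb1, Lamb1 with Lama4 and Lama4 with Lama2. Lamc1 ranked between place 87 and 113 of all 22026 symbols in the P5 isolations and between 322 and 439 at P30. Lamb2 ranked between 743 and 1256 at P5 and between 318 and 351 at P30.

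The share of each chain within its class was computed in each isolation, as its FPKM over the summed FPKM of the 5 α chains, of the 3 β chains, or of Lamc1 and Lamc3. Of the β chains, Lamb2 made up 32.4%, 29.8% and 22.2% at P5 but 74.5%, 64.4% and 78.7% at P30. No P30 isolation came near a P5 isolation, and the mean rose from 28.2 ± 5.32 to 72.5 ± 7.32 percent (exact two-sided permutation test, p = 0.1). This is the smallest p that 3 against 3 isolations allow, so these tests cannot reach 0.05. The ratio of Lamb2 to Lamb1 was 0.480, 0.425 and 0.285 at P5 and 2.91, 1.81 and 3.69 at P30. Lamb3 took 0% of the β chains in 5 isolations and 0.0463% in P30 replicate 2.

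Among the α chains, Lama4 fell from 57.3%, 60.2% and 66.4% at P5 to 28.6%, 27.6% and 28.4% at P30, and was nearly constant over the P30 isolations (mean 28.2 ± 0.542 percent; exact two-sided permutation test, p = 0.1). Lama5 was 30.8%, 30.7% and 25.2% at P5 and 57.7%, 34.2% and 47.8% at P30. Its share was above every P5 share in each P30 isolation (exact two-sided permutation test, p = 0.1), but the lowest P30 share, in replicate 2, was close to the P5 values. In that isolation Lama2 took 33.7% of the α chains, against 7.69% and 17.7% in P30 replicates 1 and 3 and 7.38%, 3.95% and 2.50% at P5. Over Lama4 and Lama5 alone, the share of Lama5 was 35.0%, 33.8% and 27.5% at P5 and 66.8%, 55.3% and 62.7% at P30, with a mean of 32.1 ± 4.03 and 61.6 ± 5.82 percent (exact two-sided permutation test, p = 0.1). Lama3 went from 1.62 ± 0.107 to 4.96 ± 1.25 percent and Lama1 from 3.57 ± 0.642 to 0.551 ± 0.350 percent. Lama4 had 2.15 ± 0.424 times the FPKM of Lama5 at P5 and 0.633 ± 0.159 times at P30.

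Of Lamc1 and Lamc3 together, Lamc1 made up 96.2%, 98.0% and 99.5% at P5 and 88.2%, 65.6% and 73.7% at P30, so that Lamc3 took up to 34.4%, in P30 replicate 2. The share of Lamc1 was lower in every P30 isolation (exact two-sided permutation test, p = 0.1).

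**Figure D2:**
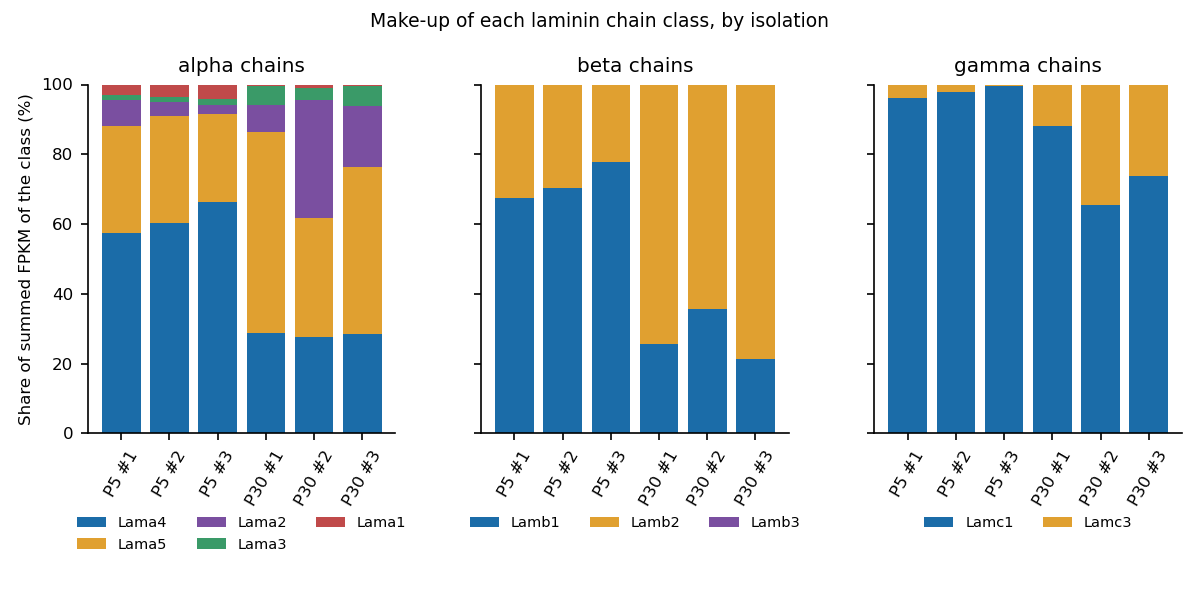
Stacked bars give the share of each chain (percent of the summed FPKM of its class, axis from 0) in each of the 6 isolations, for the α chains, the β chains, and Lamc1 with Lamc3. Lamb2 passes from 22.2% to 32.4% of the β chains at P5 to 64.4% to 78.7% at P30, and Lama4 from 57.3% to 66.4% of the α chains to 27.6% to 28.6%.

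The 9 chains summed to 3326, 3268 and 3424 FPKM at P5 and 2217, 2882 and 2186 at P30, lower in every P30 isolation (exact two-sided permutation test, p = 0.1). The β chains together were 1059 ± 9.49 FPKM at P5 and 995 ± 98.5 at P30, and the ages overlapped (p = 0.400 by the exact permutation test). Between the means, Lamb1 was 484 FPKM lower at P30 and Lamb2 419 FPKM higher. The α chains were 999 ± 24.3 and 805 ± 183 (exact two-sided permutation test, p = 0.300), but Lama4 and Lama5 together went from 901 ± 4.84 to 588 ± 36.3, without overlap (exact two-sided permutation test, p = 0.1). Lamc1 and Lamc3 together went from 1308 ± 61.6 to 854 ± 278, also without overlap. These class sums are on the deposited scale. On it the FPKM total of all genes was 1432700 to 1485332 at P5 and 1571227 to 1734639 at P30, higher in every P30 isolation. The class sums were not recomputed with equal totals, so the overlap of the α and of the β sums is shown for the deposited scale only. For 1 α chain there were 1.06 ± 0.0312 β and 1.31 ± 0.0748 γ (Lamc1 and Lamc3) transcripts at P5, per length, and 1.26 ± 0.179 β and 1.05 ± 0.0986 γ at P30. In all, 26 sums, shares and ratios were tested, and 22 of them reached the smallest p of 0.1. Many restate each other, such as a ratio and its inverse or the shares of Lamc1 and Lamc3, so they are not separate results. This p means only that the ages did not overlap. Of all genes tested, 33.0% lay lower in every P30 isolation and 22.0% higher.

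Of 10 laminin receptors, 2 were called higher at P30 (5.89% of all genes tested were) and 1 higher at P5 (5.82% were) in limma, and 7 were not called. Bcam, the Lutheran receptor that binds α5, was 452, 427 and 317 FPKM at P5 and 949, 878 and 897 at P30 (log2 difference 1.20, SE 0.14, adjusted p = 0.00101 from limma). Its call was lost with quantile normalization, where the fold in means fell just under 2 (log2 0.99), and without the filter on low values (adjusted p = 0.0133 from limma). Itga3, the α3 subunit of an integrin that binds α5 and α3 laminins, was 94.1, 90.0 and 83.9 at P5 and 414, 269 and 304 at P30 (log2 difference 1.85, SE 0.16, adjusted p = 0.000334 from limma). Itga2, a collagen and laminin receptor subunit, fell from 42.8 ± 2.53 to 2.95 ± 0.832 (log2 difference -3.49, SE 0.24, adjusted p = 0.000168 from limma). Itgb1, the shared β subunit, was 1882 ± 30.4 and 1323 ± 143, past the adjusted p (0.00923 from limma) but under 2-fold. Itga6, the subunit of the main laminin-binding integrin of ECs, had a log2 difference of -0.08 (95% interval -0.29 to 0.13) and Dag1, dystroglycan, of 0.19 (95% interval -0.12 to 0.50). Mcam, a receptor of α4, was 1667 ± 55.5 at P5 and 1061 ± 220 at P30 (log2 difference -0.67, adjusted p = 0.0136 from limma), and Itga1, Itga7 and Itgb4 did not pass the limits either, with differences of 0.47, 2.48 and 1.54.

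Of 7 partners of laminin in the basement membrane, 3 were called higher at P5, beside 5.82% of all genes tested, and 1 higher at P30, beside 5.89%. Nid2, a nidogen that bridges laminin γ1 to collagen IV, fell from 1166 ± 66.1 to 539 ± 82.9 FPKM (log2 difference -1.12, SE 0.13, adjusted p = 0.000887 from limma), and Agrn, agrin, from 692 ± 45.2 to 327 ± 64.4 (log2 difference -1.10). Col4a1, a chain of collagen IV, fell from 4241 ± 99.5 to 1780 ± 430 (log2 difference -1.28, SE 0.17, adjusted p = 0.00161 from limma). Nid1, Hspg2 (perlecan) and Col4a2 passed the adjusted p but not 2-fold, with differences of -0.70, -0.66 and -0.93. Ntn4, netrin-4, a laminin-like protein that binds laminin γ chains and can break up laminin networks, rose from 17.6, 14.7 and 12.7 to 92.6, 153 and 194 (log2 difference 3.16, SE 0.27, adjusted p = 0.000310 from limma). The number of partners called was 2, in place of 4, without P5 replicate 2 or P5 replicate 3, where Agrn and Col4a1 lost their calls. Agrn also lost its call without P5 replicate 1 or P30 replicate 3 and Col4a1 without P30 replicate 1, and Col4a2 was called without P30 replicate 2.

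**Figure D3:**
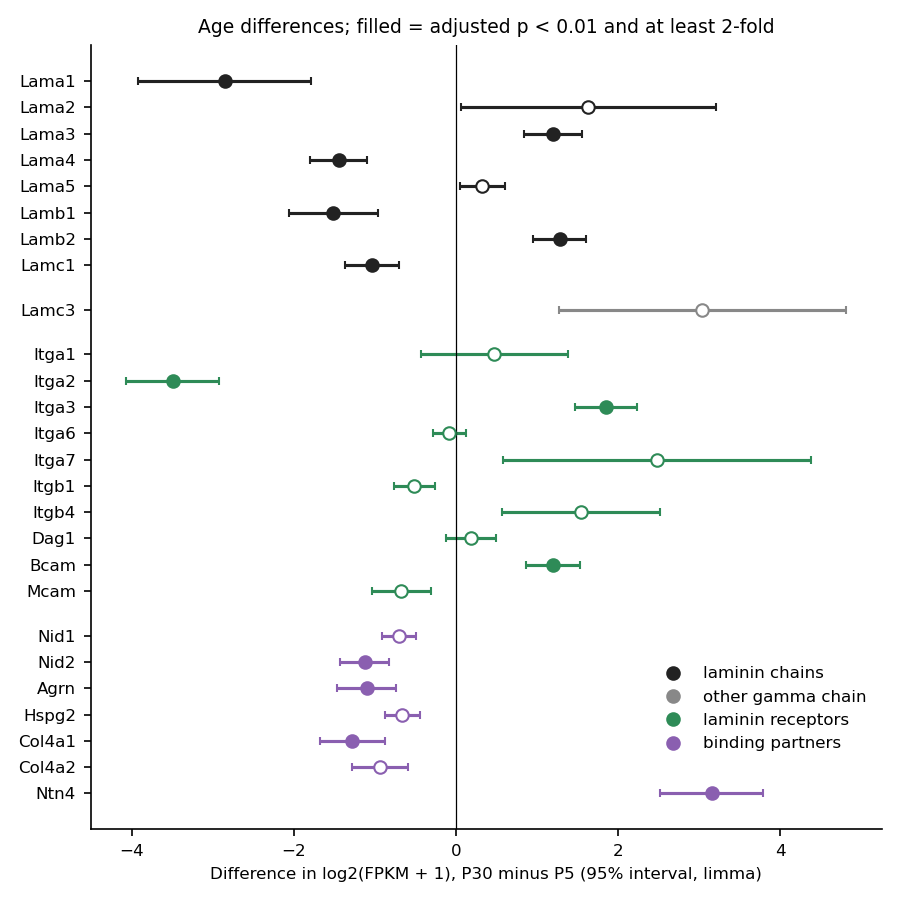
Difference in log2(FPKM + 1), P30 minus P5, with 95% intervals from limma, for the 8 laminin chains tested (black), Lamc3 (grey), 10 laminin receptors (green) and 7 binding partners (purple). Filled points passed an adjusted p of 0.01 and 2-fold, among them Lama4 at -1.45, Lamb1 at -1.51, Lamb2 at 1.28 and Bcam at 1.20.

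The chains differed in how they varied beside the pericyte markers. Lama2 had the same order of isolations as the summed pericyte list within each age, highest in P5 replicate 1 and in P30 replicate 2, and so had Lamc3. Per unit of Pdgfrb, the receptor that marks pericytes, Lama2 was 0.336, 0.351 and 0.507 at P5 and 0.225, 0.344 and 0.262 at P30, so that the ages overlapped. Lamc3 per unit of Pdgfrb was higher in every P30 isolation, at 0.152 to 0.230 at P5 and 0.332 to 0.405 at P30. The ratio to Pdgfrb was chosen after the values had been seen. The overlap of Lama2 and the separation of Lamc3 are shown for this denominator only. Ratios of either chain to the other pericyte genes were not tested. The 7 pericyte genes did not move alike. Pdgfrb was among the 4 that were higher in every P30 isolation, while Cspg4, Notch3 and Abcc9 overlapped between the ages. Abcc9 was 199, 159 and 163 FPKM at P5 and 92.5, 259 and 167 at P30. Rgs5 had the highest FPKM of the list in every isolation. Within P5, Lama5 and Lamb2 followed the order of the pericyte list, which the smooth muscle, Schwann cell and haematopoietic lists shared. At P30 Lamb2 was between 710 and 725 as the pericyte list went from 1841 to 6228. Within P30, Lama4 was lowest where the pericyte list was lowest and highest where it was highest. The fibroblast list had that same order at P30 (1777, 4488 and 2380 FPKM), so the orders within P30 are not particular to the pericyte list. The part of pericyte RNA, or of RNA from other cells, in the chain values was not tested.

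**Figure D4:**
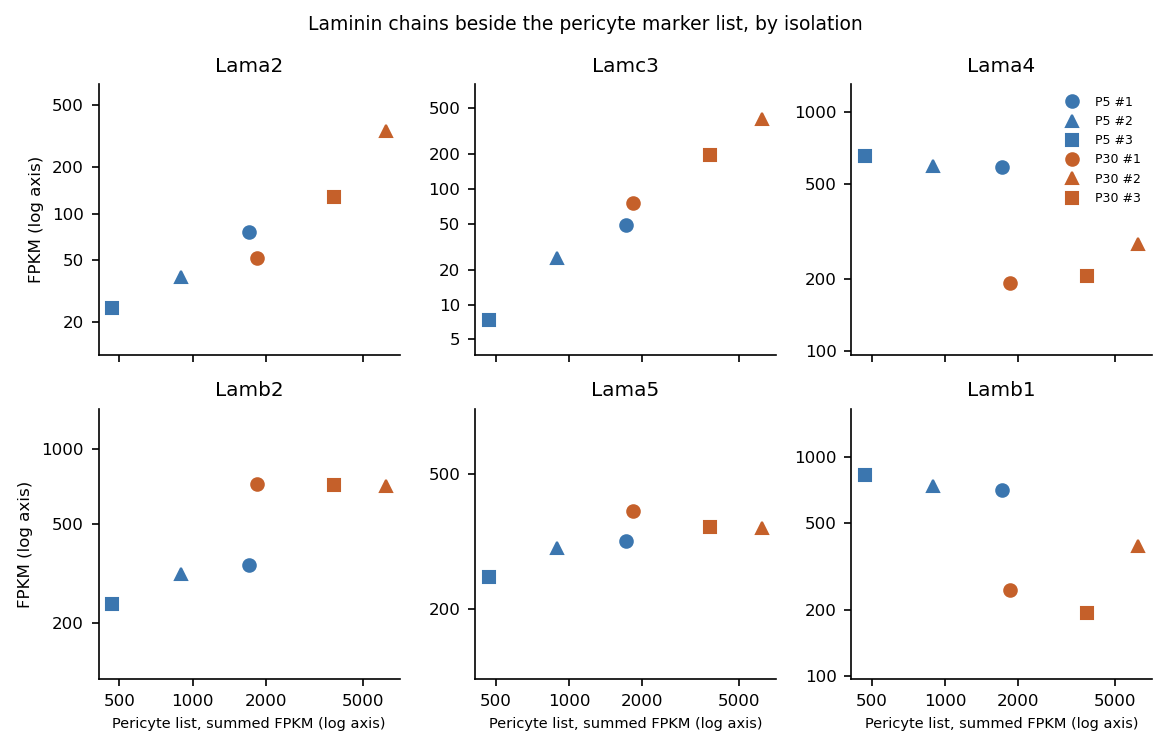
FPKM of 6 laminin chains against the summed FPKM of 7 pericyte markers, both on log axes, with 1 point per isolation (P5 blue, P30 orange). Lama2 and Lamc3 climb with the pericyte list within each age, while Lamb2 stays at 710 to 725 in the P30 isolations and Lama4 lies lower in all P30 isolations than in any P5 isolation. The fibroblast list, not drawn, had the same order of isolations as the pericyte list at P30.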

How the data were processed

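RNA of sorted choroid ECs was sequenced in 6 samples, 3 isolations at P5 and 3 at P30, grouped by their labels. For each isolation the authors deposited 1 FPKM value per gene symbol, made from TopHat alignments to mm9 by CuffLinks, which normalized for GC and the upper quartile. The submitters' processing notes also name CASAVA 1.8.2, and the versions of TopHat and CuffLinks and the annotation are not given in the sources used here. The authors' DESeq2 test used read counts, which were not used here. Low FPKM values gave no step of 1 read (at most 4.58% of log2 ratios of values under 2 FPKM fell in a bin of 0.05), so the depth stays unknown and a value of 0 does not show that a gene was silent.

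From the deposited FPKM, log2(FPKM + 1) was tested with limma 3.58.1 in R 4.3.3 (eBayes with a trend, no block) over the 12481 genes with a mean of at least 5 FPKM at either age. This scale understates the change of low genes. Calls needed a Benjamini-Hochberg adjusted p under 0.01 over all these genes and at least 2-fold in mean FPKM + 1. Sums, shares and ratios used exact two-sided permutation tests (scipy 1.17.1, Python 3.11.15). The genes named were the 9 chains, Lamc3, the receptor and partner lists, and for each of 5 vascular chains the 3 genes nearest in their centred log2 values. The chains, lists and markers were chosen with earlier results of these data known. Shares of γ chains were taken over Lamc1 and Lamc3, and some items are not reported here. Gene positions are from the GENCODE annotation of mm9. Alternatives were other pseudocounts (0.1 and 5), minimum values, scalings, no trend, a replicate block, and each isolation left out.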

Additional observations from a re-analysis of the deposited data

How the results depend on the processing

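Differences of the 8 chains tested were recomputed under 14 alternatives each, 112 in all, and none changed direction. The side of the limits was kept in 94 and lost in 18, most of them with an isolation left out. Lama4 kept its call under every alternative and Lamb2 under all but the fit without a filter, in which all 22026 symbols were tested and its adjusted p was 0.0108. Over the alternatives the adjusted p of limma ran from 0.000250 to 0.00968 for Lama4, from 0.000682 to 0.0108 for Lamb2, from 0.000986 to 0.0314 for Lamb1, from 0.000449 to 0.0194 for Lamc1, from 0.00138 to 0.0124 for Lama3 and from 0.00157 to 0.0325 for Lama1. Without the filter, 1 chain was called higher at P30, 1 higher at P5, and 1 partner of laminin was called. With an isolation left out, between 1 and 2 chains were called higher at P30, between 1 and 4 higher at P5, and between 2 and 5 partners. These fits have fewer samples. Over all genes, 242 were called higher at P30 and 296 higher at P5 without the filter, against 735 and 726. Leaving out an isolation gave 390 to 831 higher at P30 and 288 to 683 higher at P5, with the fewest without P5 replicate 2 (391 and 288) or P5 replicate 3 (390 and 293). Rescaling each isolation to the same FPKM total moved the median difference of all genes from -0.10 to -0.26 and the counts to 626 and 1063, and the calls of the chains stayed. The differences in the summed chains and in the shares of Lama4, Lama5, Lamb2 and Lamc1 kept their direction with each isolation left out, and the share of Lamc1 over the 9 chains alone is 100% by construction and gives no value. Same-numbered isolations of the ages deviated with correlations of -0.0877 to -0.0400, and other pairs with -0.02 to 0.0937. They gave no sign that the numbers pair the samples, but correlations near 0 cannot exclude a pairing. With the replicate block, 2 chains were called higher at P30 and 4 higher at P5, as without it, and 585 and 524 of all genes, and the receptor Itgb4 was called higher at P30 (adjusted p = 0.00807). With quantile normalization the receptor Bcam lost its call, and Mcam and the partners Hspg2 and Col4a2 were called higher at P5, and Col4a2 was so after rescaling too. Without the filter Bcam and the partners Nid2, Agrn and Col4a1 lost theirs. FPKM without counts limits what can be said of a chain near 0, Lamb3.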

Other observations

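The genes nearest to each vascular chain were taken as those with the smallest root mean square difference over the 6 isolations in log2(FPKM + 1), each gene centred on its own mean, among the 12481 genes tested. The nearest gene to Lamb2 was the laminin receptor Bcam, at a difference of 0.05, followed by Gaa, the lysosomal acid glucosidase, and Ampd3, an AMP deaminase, both at 0.07. The ratio of Lamb2 to Bcam was 0.757, 0.735 and 0.751 at P5 against 0.764, 0.809 and 0.797 at P30, higher in every P30 isolation. Its narrow range follows from the choice of Bcam as the nearest gene. Both genes were more than 2-fold higher at P30. Lama5, the chain that Bcam binds, was 0.701 to 0.783 times Bcam at P5 and 0.388 to 0.410 times at P30. The ratios were chosen after the values had been seen.

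The nearest genes to Lama4 were Zfp382, Pinx1 and Btbd3 (0.03, 0.08 and 0.09), to Lama5 Tmub2, Cyb5r3 and Slc9a8 (0.04, 0.05 and 0.05), to Lamb1 Asxl3, Zfp955b and Ccdc88c (0.07, 0.10 and 0.12) and to Lamc1 Phf14, Ammecr1 and Mbtd1 (0.04, 0.05 and 0.05). Among the chains, the closest pair was Lama4 and Lamb1 at 0.18, then Lama4 and Lamc1 and Lama3 and Lamb2, both at 0.21. The most distant was Lama1 with Lama2 at 2.34. Lama4 held 0.827, 0.802 and 0.786 times the FPKM of Lamb1 at P5 and 0.776, 0.715 and 1.07 times at P30. These are the nearest of many genes over 6 points that share libraries, and they describe the values only.

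Lamc3 per unit of Pdgfrb was 0.217, 0.230 and 0.152 at P5 and 0.332, 0.405 and 0.401 at P30, higher in every P30 isolation. Itga7, the α7 integrin subunit known from muscle, was 0.125, 0.141 and 0.0706 times Pdgfrb at P5 and 0.119, 0.165 and 0.160 times at P30.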
